A study of Mus musculus with 24 samples.

Results

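The 10 genes described here, Cdh5, Pecam1, Kdr, Tek, Tie1, Ptprb, Flt1, Emcn, Egfl7 and Esam, are markers of blood vessel endothelium, measured by RNA sequencing in epithelial cells sorted from the mouse mammary gland. They were taken by gene symbol, and all 10 were found among the 24007 genes of the table. FVB/N females of 10 to 12 weeks, in estrus, were either wild type (WT) or knockout for Id4 (KO), and the glands of 4 to 8 mice were pooled per replicate. Lineage-negative cells were sorted into basal cells (CD24+ CD29hi CD61+), luminal progenitors (LP; CD24+ CD29lo CD61+) and mature luminal (ML) cells (CD24+ CD29lo CD61-). Each of the 6 groups of genotype and population had 4 libraries, which made 24. The labels name no promoter or cell type that restricts the deletion. The sources used here do not list the lineage antibodies, so whether an endothelial surface protein such as CD31, the product of Pecam1, was among them is not known from these sources.

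Endothelial cells line blood vessels and are held together by VE-cadherin (Cdh5), PECAM-1 and ESAM at their junctions. They respond to vascular endothelial growth factor (VEGF) through the receptor kinases encoded by Kdr and Flt1, and to angiopoietins through the Tie receptors encoded by Tek and Tie1. The mammary gland holds a capillary network around its ducts, and epithelial sorts are usually depleted of vessel cells by lineage antibodies, so RNA of these genes in a sorted library is a common measure of how clean the sort was. In a bulk library a small number of endothelial cells and a low level of the RNA in the sorted cells themselves cannot be told apart.

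Library totals ran from 3098425 to 7246443 counts, and between 11837 and 17388 genes had at least 1 count, with the fewest in KO basal replicate 3, which also had the lowest total. Levels below are in CPM, a gene's count scaled to the total of its library, after TMM scaling over the 24 libraries. A count of 0 in a library allows a level of up to 3 counts, which is 0.378 to 0.976 CPM at these depths. The libraries were amplified from 0.5 to 2 ng of RNA, and the labels name no molecular identifiers, so this limit covers counting error only. The targeted gene Id4 stood at 86.3, 13.2, 29.9 and 39.6 CPM in WT basal replicates 1 to 4 and at 10.3, 1.13, 11.1 and 0.942 CPM in KO basal replicates 1 to 4. Every KO basal library was below every WT basal library, but the fitted difference missed the threshold (log2 fold change -2.80 ± 0.87 SE, n = 4 per genotype, edgeR quasi-likelihood test, Benjamini-Hochberg adjusted p = 0.998), and the sources used here do not state which exons the allele removes. The 10 basal epithelial markers, among them Acta2 and Krt14, summed to 7900 to 14577 CPM in the 8 basal libraries and to at most 222 CPM in the other 16 libraries. WT basal replicate 2 stood apart from the other basal libraries: its 12 immune markers summed to 143 CPM against 9.42 to 31.2 CPM, and its 8 luminal progenitor markers to 4630 CPM against 210 to 1255 CPM. The p-values below measure the spread between these libraries of pooled mice.

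The 10 endothelial markers were a very small part of every library. Their summed level took between 0.000581% and 0.0352% of a library's counts. In WT basal replicates 1 to 4 the sum was 19.6, 87.6, 146 and 81.7 CPM, and in KO basal replicates 1 to 4 it was 87.0, 152, 354 and 110 CPM. The lowest basal library was WT replicate 1 and the highest KO replicate 3, and the other 6 libraries, 3 of each genotype, lay between 81.7 and 152 CPM. The LP libraries held 37.0, 24, 24.6 and 25.2 CPM in WT and 38.1, 23.6, 5.21 and 44.8 CPM in KO. The ML libraries held 35.3, 30.6, 27.8 and 31.2 CPM in WT and 12.1, 73.1, 90.5 and 65.7 CPM in KO.

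**Figure D1:**
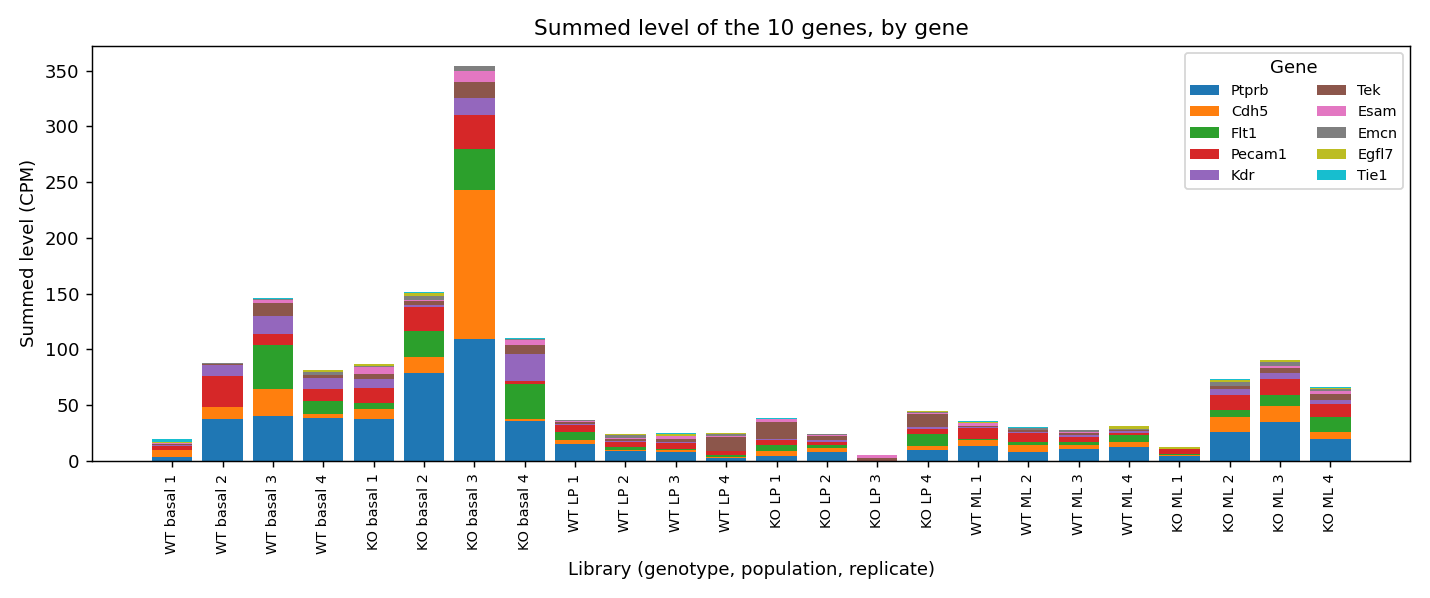
Summed level of the 10 endothelial marker genes (CPM, vertical axis) in each of the 24 libraries (horizontal axis), with 1 colour per gene. KO basal replicate 3 reaches 354 CPM, with Cdh5 at 134 CPM, while the other 23 libraries stay at or below 152 CPM.

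The average KO sum was 2.10 times the average WT sum in basal cells (176 ± 122 against 83.7 ± 51.6 CPM, mean ± SD, n = 4 per genotype). It was 1.01 times in LP (27.9 ± 17.5 against 27.7 ± 6.24 CPM) and 1.93 times in ML cells (60.3 ± 33.8 against 31.2 ± 3.13 CPM). A higher KO average was therefore seen in ML cells as well as in basal cells, and in both populations the KO and WT libraries overlapped. KO basal replicate 3 alone held 50.4% of the sum over the 4 KO basal libraries, and without it the basal ratio was 1.39. In ML cells KO replicates 2, 3 and 4 lay above the 4 WT libraries and KO replicate 1 lay below them.

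Among the junction genes, Cdh5 (chr8:104101625-104144511, + strand, mm10), the cadherin of endothelial junctions, stood at 6.23, 11, 24.4 and 3.48 CPM in WT basal replicates 1 to 4 and at 9.34, 14.3, 134 and 1.41 CPM in KO basal replicates 1 to 4. The 134 CPM of KO replicate 3, from 413 counts, was 84.3% of the Cdh5 level summed over the 4 KO libraries, and KO replicate 4 was the lowest of the 8. Without KO replicate 3 the KO average was 8.36 CPM and lay below the WT average of 11.3 CPM. In LP cells Cdh5 was at 2.90, 1.41, 2.41 and 0.791 CPM in WT and at 5.09, 3.57, 0 and 3.69 CPM in KO. In ML cells it was at 5.23, 6.66, 3.82 and 4.57 CPM in WT and at 1.70, 13.2, 14.6 and 6.28 CPM in KO. The WT and KO libraries overlapped in all 3 populations.

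Pecam1 (chr11:106654217-106750628, - strand), a cell adhesion receptor of endothelium that platelets and leukocytes also carry, stood at 3.19, 27.5, 9.05 and 10.8 CPM in WT basal replicates 1 to 4 and at 12.9, 22.1, 30.6 and 3.30 CPM in KO basal replicates 1 to 4. The 2 highest libraries were KO replicate 3 and WT replicate 2, the library with the high immune markers. The part of those immune markers in the Pecam1 level was not tested. Pecam1 ranged from 0 to 6.43 CPM in LP and from 2.65 to 14.3 CPM in ML libraries. Esam (chr9:37528078-37538319, + strand), an immunoglobulin-family protein of endothelial tight junctions and platelets, stood at 0.435, 0.589, 1.81 and 0.166 CPM in WT basal and 6.12, 0.188, 10.1 and 4.47 CPM in KO basal libraries. KO basal replicates 1, 3 and 4 lay above all WT basal libraries and KO replicate 2 lay among them. These levels rest on 1 to 38 counts per library.

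Of the VEGF receptors, Kdr (chr5:75932827-75978458, - strand), which encodes VEGFR2, the main signalling receptor for VEGF-A, stood at 1.16, 9.62, 16.9 and 9.61 CPM in WT basal replicates 1 to 4 and at 8.70, 1.13, 14.6 and 23.8 CPM in KO basal replicates 1 to 4. Its highest library was KO replicate 4, the library with the lowest Cdh5. Kdr was at most 2.28 CPM in LP and at most 5.74 CPM in ML libraries. Flt1 (chr5:147561604-147726011, - strand), which encodes VEGFR1, a receptor that also limits VEGF-A as a soluble form, stood at 0.870, 0, 39.5 and 11.8 CPM in WT basal and at 5.48, 23.2, 37.1 and 31.3 CPM in KO basal libraries. WT basal replicate 3 was the highest of the 24 libraries for Flt1, and WT basal replicate 2 had no Flt1 count at all, although its Pecam1 and Ptprb levels were among those of the other basal libraries.

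The angiopoietin receptor Tek (chr4:94739289-94874976, + strand), also called Tie2, was the member with the least difference between basal and LP libraries. It stood at 1.01, 0.982, 11.8 and 2.49 CPM in WT basal replicates 1 to 4 and at 4.03, 4.15, 14.6 and 8.71 CPM in KO basal replicates 1 to 4. In LP cells it stood at 1.39, 2.47, 2.65 and 12.3 CPM in WT and at 15.4, 3.40, 2.84 and 11.4 CPM in KO replicates 1 to 4. KO LP replicate 1 was the highest of all 24 libraries. KO LP replicate 3 held counts of only Tek and Esam among the 10 genes. The related receptor Tie1 (chr4:118471191-118490061, - strand) had 58 counts in all 24 libraries together, 18 of them in WT basal replicate 1 at 2.61 CPM. Its level did not exceed 0.942 CPM in any other library.

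Ptprb (chr10:116275523-116389535, + strand), the receptor tyrosine phosphatase VE-PTP that acts on Tek and on VE-cadherin complexes, stood at 3.04, 37.5, 40.4 and 38.5 CPM in WT basal replicates 1 to 4 and at 37.2, 78.8, 109 and 35.8 CPM in KO basal replicates 1 to 4. WT replicate 1 lay far below the other 7, and KO replicates 2 and 3 lay above them. In ML cells Ptprb was at 13.3, 7.51, 10.3 and 12.7 CPM in WT and at 3.91, 26.2, 34.4 and 19.8 CPM in KO libraries, and in LP cells it ranged from 0 to 15.5 CPM.

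The sialomucin endomucin (Emcn, chr3:137341067-137432185, + strand), found on capillary and venous endothelium, stood at 0, 0.196, 0.905 and 2.65 CPM in WT basal and at 1.61, 3.77, 4.23 and 0.471 CPM in KO basal libraries. The genotypes overlapped, and KO ML replicate 2 stood at 4.23 CPM as well. The secreted factor Egfl7 (chr2:26580014-26593120, + strand), the host gene of miR-126, stood at 1.01, 0.196, 0 and 2.15 CPM in WT basal and at 1.45, 3.20, 0 and 0 CPM in KO basal libraries. KO basal replicate 3, the library with the highest Cdh5, had no Egfl7 count, which allows up to 0.976 CPM. Of the exonic bases of Egfl7, 11.2% are shared with other annotated genes, among them Agpat2 on the opposite strand, while the exons of the other 9 genes overlap no other annotated gene. The sources used here do not state whether counting used strand, so reads from these genes cannot be told apart there.

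**Figure D2:**
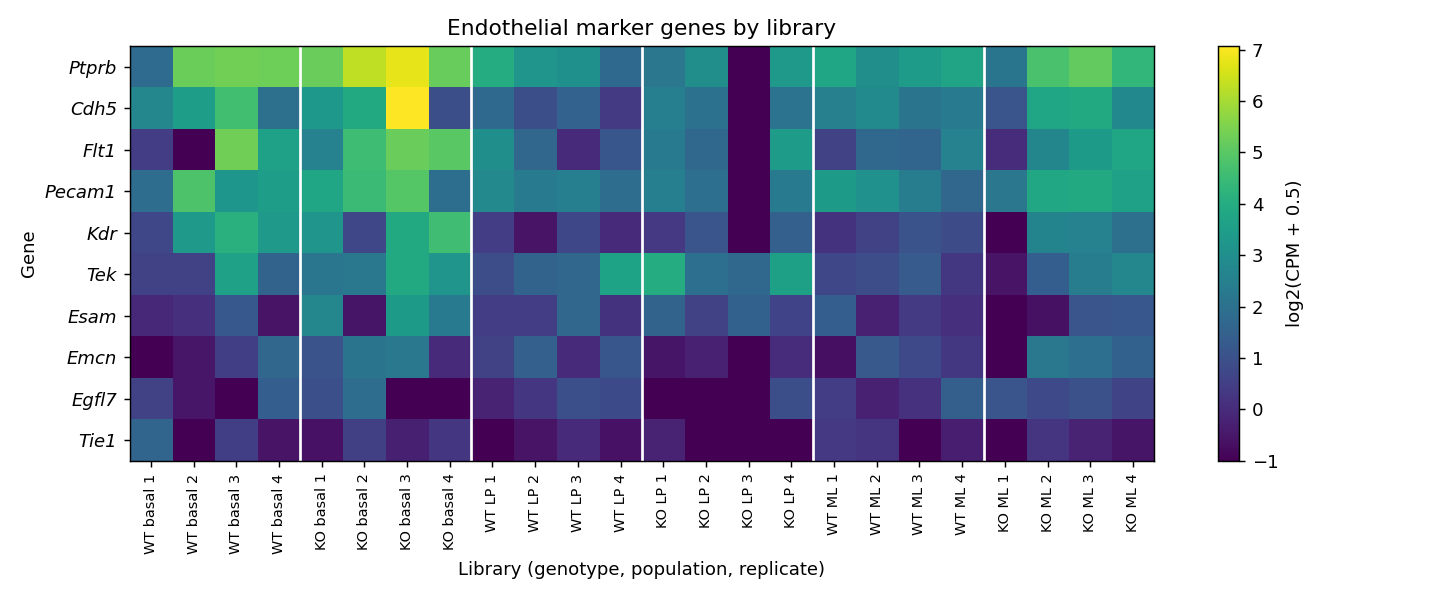
Level of each of the 10 genes (rows) in each of the 24 libraries (columns), as log2(CPM + 0.5) in colour, with white lines between groups. The bright cells of KO basal replicate 3 are Cdh5 at 134 CPM and Ptprb at 109 CPM, and in the same column Egfl7 is at 0.

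Per kilobase of the gene length in the table, the mean level over the 8 basal libraries was highest for Cdh5 (6.41 CPM per kb), then Pecam1 (4.61), Ptprb (3.99), Flt1 (2.71), Kdr (1.80), Esam (1.60), Egfl7 (1.53), Tek (1.43), Emcn (0.845) and Tie1 (0.255). Without KO replicate 3 the Cdh5 level was 2.52 CPM per kb, below the 3.92 of Pecam1 and the 3.25 of Ptprb. Neighbours in this order differed by less than the SD over the 8 libraries, which was 11.2 for Cdh5, 3.27 for Pecam1, 2.69 for Ptprb and 2.35 for Flt1.

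The proportions of the 10 genes were not constant between libraries. Cdh5 made up 31.9%, 12.6%, 16.8% and 4.26% of the summed level in WT basal replicates 1 to 4, and 10.7%, 9.44%, 37.9% and 1.28% in KO basal replicates 1 to 4. Over the ML libraries its share stayed between 9.56% and 21.8%, and that of Ptprb between 24.6% and 40.6%, against 15.6% to 51.9% in basal libraries. Among the 36 pairs of the 9 genes that passed the expression filter of the 24-library fit, the median Pearson correlation of log2(CPM + 0.5) was 0.38 over the 24 libraries, from -0.48 for Egfl7 and Esam to 0.87 for Pecam1 and Ptprb. Over the 8 basal libraries the median was 0.37, the range -0.72 to 0.90, and 7 pairs were below 0. All but 1 of these 7 held Egfl7, from -0.72 with Kdr to -0.12 with Ptprb, and the other was Pecam1 and Flt1 at -0.01. Egfl7 had no count in 3 of the 8 basal libraries and at most 17 counts in any library. These libraries differ in population and depth, and the correlations are given as a description. Tek and Flt1 were the pair most alike over the basal libraries (r = 0.90), while their correlation over all 24 was 0.60.

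The promoters of these receptors are shown because Tek and Flt1 were the pair most alike over the basal libraries, beside Kdr, a paralog of Flt1 (r = 0.57 with Tek and 0.36 with Flt1 over the same 8 libraries, and 0.40 and 0.62 over the 24). RefSeq sequences on GRCm38.p6, covering 250 bases before to 50 after the annotated start, were found for 6 of the 10 genes, with 8 entries. They come from the reference assembly and not from FVB/N mice. Capitals mark AGGAA, the core of ETS factor sites, with its reverse complement TTCCT, and CANNTG, the E-box core that basic helix-loop-helix factors bind. The Flt1 entry lies at chr5:147725962-147726261 on the minus strand, the Tek entry at chr4:94739039-94739338 on the plus strand and the Kdr entry at chr5:75978406-75978705 on the minus strand.
Flt1: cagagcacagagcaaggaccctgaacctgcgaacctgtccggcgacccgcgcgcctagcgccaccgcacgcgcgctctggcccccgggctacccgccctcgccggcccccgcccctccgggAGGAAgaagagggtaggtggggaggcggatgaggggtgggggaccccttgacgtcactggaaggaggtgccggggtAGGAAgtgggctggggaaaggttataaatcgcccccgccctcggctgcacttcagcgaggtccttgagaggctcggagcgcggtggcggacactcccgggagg
Tek: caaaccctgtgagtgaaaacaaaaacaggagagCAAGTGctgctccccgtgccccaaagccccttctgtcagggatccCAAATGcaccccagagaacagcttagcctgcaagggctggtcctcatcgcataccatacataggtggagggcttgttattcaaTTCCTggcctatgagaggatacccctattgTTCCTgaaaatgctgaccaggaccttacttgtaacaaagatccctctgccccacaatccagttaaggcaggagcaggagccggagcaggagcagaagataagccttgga
Kdr: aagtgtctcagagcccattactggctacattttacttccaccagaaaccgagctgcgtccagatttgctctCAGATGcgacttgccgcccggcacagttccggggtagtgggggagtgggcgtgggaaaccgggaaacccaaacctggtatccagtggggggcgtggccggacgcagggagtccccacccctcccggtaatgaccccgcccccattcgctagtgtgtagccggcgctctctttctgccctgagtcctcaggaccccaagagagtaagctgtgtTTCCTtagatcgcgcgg
Flt1 held 2 matches of AGGAA on either strand and none of CANNTG, Tek held 2 of each, and Kdr held 1 of each. No AGGAA match overlapped a CANNTG match. Over the 8 entries, AGGAA was found in 7 and CANNTG in 6, while 66.7% and 72.3% of all 32851 promoters of the same length held them. Egfl7 supplied more than 1 of the 8 entries, so they are not independent. The GATA motif AGATAA, also searched on both strands, was found in 1 of the 8 entries, that of Tek, and in 11.2% of all promoters. A match describes the letters only.

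The question of the basal comparison was whether the endothelial markers were higher in KO than in WT basal libraries. No member changed by the test. Of the 10, 6 passed the expression filter, and Tie1, Emcn, Egfl7 and Esam did not. By edgeR's quasi-likelihood test 0 of the 6 passed at a Benjamini-Hochberg adjusted p of 0.05, where the background is 0% (0 of 11307 genes). An unadjusted p under 0.05 was found for 383 genes, 3.39% of those tested, and for 0 of these 6 members. DESeq2 called 21 genes and limma voom with sample weights 1 gene, and neither called any of the 6. The fitted log2 fold changes, KO over WT, were 1.90 ± 1.05 (SE) for Cdh5, 1.16 ± 0.65 for Ptprb, 1.02 ± 1.11 for Tek, 0.97 ± 1.16 for Flt1, 0.45 ± 0.86 for Pecam1 and 0.39 ± 1.00 for Kdr, each with adjusted p = 0.998 and n = 4 per genotype. Their median was 1.00, against 0.01 over all genes tested. The 4 genes that the filter removed were read in the fit of all 24 libraries and in the fit with no filter, and not in the other alternatives. In the fit of all 24 libraries, KO over WT in basal cells was 2.82 ± 1.15 for Esam (log2, SE; unadjusted p = 0.0206, edgeR adjusted p = 0.289), 1.39 ± 1.19 for Emcn (0.667) and 0.45 ± 1.27 for Egfl7 (0.931). In the 8-library fit with no filter, Esam was at 2.83 ± 1.73 (adjusted p = 0.639) and Tie1 at -0.72 ± 2.04 (0.971). None passed in either of these fits (Tie1 was in the second only). For none of the 6 did the KO libraries lie outside the range of the WT libraries, which happened for 1.07% of genes tested as all higher and 1.59% as all lower.

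KO basal replicate 3 set the direction for Cdh5, and the Pecam1 value depended on it and on WT basal replicate 2. Without that library the fitted values were -0.45 for Cdh5, -0.01 for Pecam1, 0.76 for Ptprb, 0.48 for Tek, 0.64 for Flt1 and 0.26 for Kdr. Leaving out KO basal replicate 4 turned Kdr to -0.16. Leaving out WT basal replicate 3 instead raised the fitted value to 2.44 for Tek and 2.62 for Flt1. Leaving out WT basal replicate 2 raised Pecam1 to 1.24. Without both KO basal replicate 3 and WT basal replicate 2, Pecam1 was at 0.77 and Cdh5 at -0.43. With the replicate number as a block Cdh5 was at 0.60, Tek at 1.55 and Flt1 at 2.32, and by limma voom with sample weights Cdh5 was at 0.45, Kdr at 0.07 and Flt1 at 0.66. In replicates 1 and 2 alone Flt1 was at 4.96, Tek at 1.99 and Cdh5 at 0.43. The adjusted p-values of the 6 members ran from 0.424 to 1 over all alternatives.

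**Figure D3:**
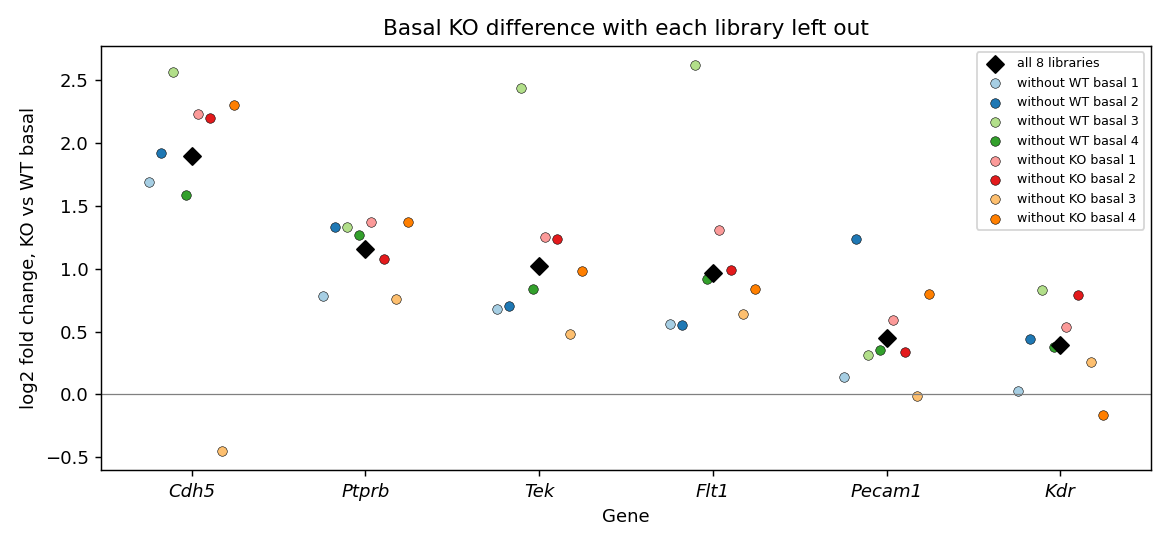
Fitted log2 fold change, KO over WT basal (vertical axis), of the 6 members tested, with all 8 libraries (black diamonds) and with each library left out in turn (coloured points). Cdh5 goes from 1.90 to -0.45 without KO basal replicate 3, and Ptprb stays between 0.76 and 1.37.

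In ML cells, too, all 6 members tested were fitted above 0, and none changed by the test. The log2 fold changes were 1.37 ± 0.96 (SE) for Emcn, 1.35 ± 0.79 for Tek, 1.32 ± 0.74 for Flt1, 0.96 ± 0.49 for Ptprb, 0.84 ± 0.55 for Cdh5 and 0.77 ± 0.48 for Pecam1, each with adjusted p = 0.998 by edgeR's quasi-likelihood test and n = 4 per genotype. Their median was 1.14, against 0.01 over all genes, and the background of genes called was 0.00851% (1 of 11747, with 3.87% at an unadjusted p under 0.05). Values without each library in turn stayed between 0.49 and 1.91. DESeq2 called 11 genes and none of these 6 members. In LP cells 5 members were tested, with log2 fold changes of 0.79 ± 0.75 (SE) for Tek, 0.71 ± 0.88 for Cdh5, 0.44 ± 0.98 for Flt1, -0.57 ± 0.79 for Pecam1 and -0.69 ± 0.81 for Ptprb, each with adjusted p = 0.999. The background was 0% (0 of 11700 genes by edgeR, 4 by DESeq2), and 439 genes, 3.75%, had an unadjusted p under 0.05. Of the members tested, 0 had an unadjusted p under 0.05 in LP or ML cells. None of the members tested had KO libraries all above or all below the WT libraries, which held for 1.5% and 1.2% of genes in LP and for 1.24% and 1.41% in ML cells.

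Whether the KO difference itself differed between populations was tested in the fit of all 24 libraries. None of the 9 members tested passed for any of the 3 pairs of populations, where edgeR's quasi-likelihood test called 0% of 14082 genes (DESeq2 called 44 genes for basal and LP, 42 for basal and ML, and 1 for LP and ML, none of them among these 9 members). An unadjusted p under 0.05 was found for 980 genes (6.96%), 970 genes (6.89%) and 186 genes (1.32%), in the same order. The member with the smallest p was Emcn, whose KO difference was higher in basal than in LP cells by 3.66 ± 1.73 (log2, SE; unadjusted p = 0.0442, adjusted p = 0.699). This value rests on few counts. Emcn had 1, 2, 0 and 3 counts in KO LP replicates 1 to 4 and 0, 1, 3 and 16 in WT basal replicates 1 to 4. For Cdh5 the KO difference was higher in basal than in LP cells by 1.10 ± 1.34 and higher than in ML cells by 1.00 ± 1.30 (adjusted p = 0.937 and 0.955), and both values were below 0 without KO basal replicate 3 (-1.14 and -1.23). These contrasts share libraries with the KO comparisons above.

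Between sorted populations, the share of members called was clearly above that of all genes only in basal against LP cells. It was near or below that share in basal against ML cells, and no member was called between LP and ML cells. These tests had 8 libraries per population, against 4 per genotype in the KO comparisons. The expression filter needs a level in only as many libraries as 1 group holds, so a gene high in basal cells alone can enter. Kdr passed the filter within basal cells and not within LP or ML cells, so it was tested here through the libraries where it is high. The share of members called carries that limit. In the fit of all 24 libraries, averaged over genotype, 5 of the 9 members tested were higher in basal than in LP cells and none was lower, where 14.8% of the 14082 genes tested were called higher, 13.7% lower and 28.5% in either direction. Kdr rose by 3.52 ± 0.77 (log2, SE; adjusted p = 0.000879), Cdh5 by 3.11 ± 0.71 (0.00122), Ptprb by 2.68 ± 0.55 (0.00045), Flt1 by 2.23 ± 0.82 (0.0422) and Pecam1 by 1.89 ± 0.56 (0.011), by edgeR's quasi-likelihood test with Benjamini-Hochberg adjustment and n = 8 libraries per population. Emcn (1.28 ± 0.86, adjusted p = 0.293), Egfl7 (0.78 ± 0.91, 0.578), Esam (0.40 ± 0.79, 0.757) and Tek (-0.16 ± 0.64, 0.883) did not pass. For no member did all basal libraries lie above all LP libraries or below them, against 4.47% and 3.12% of genes tested.

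The call for Flt1 was lost when any of 10 single libraries was left out, with adjusted p from 0.053 to 0.195, and its value fell most without WT basal replicate 3 (1.43). These 10 were WT basal replicates 3 and 4, KO basal replicates 3 and 4, WT LP replicates 2, 3 and 4, and KO LP replicates 1, 2 and 3. Libraries whose titles share a number may come from 1 pool of mice, and with that number as a block within genotype Flt1 was at 1.53 (adjusted p = 0.303) while the other 4 calls held. Flt1 also lost its call with no filter (2.19, adjusted p = 0.095), with the replicate block (1.62, 0.217), by voom (1.42, 0.231), in WT libraries alone (2.03, 0.296) and in KO libraries alone (2.55, 0.104). Kdr, Cdh5, Ptprb and Pecam1 kept their calls without each single library. Cdh5 without KO basal replicate 3 was at 1.99, adjusted p = 0.0154. With 1 genotype alone, Kdr was not called in KO libraries (3.37, adjusted p = 0.0756), Ptprb not in WT libraries (1.79, 0.0718) and Pecam1 in neither (1.41, 0.167 in WT and 2.48, 0.0759 in KO). Without both KO basal replicate 3 and WT basal replicate 2, Pecam1 was no longer called (1.31, adjusted p = 0.0655).

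Against ML cells, 2 of 9 members were higher in basal cells, where 19.1% of genes tested were called higher, 16.7% lower and 35.8% in either direction. Kdr rose by 2.36 ± 0.73 (log2, SE; adjusted p = 0.0119) and Ptprb by 1.53 ± 0.53 (adjusted p = 0.0231, edgeR quasi-likelihood test). Cdh5 (1.64 ± 0.66, adjusted p = 0.0538), Flt1 (1.92 ± 0.81, 0.067), Tek (1.41 ± 0.66, 0.0992), Pecam1 (0.82 ± 0.54, 0.253), Esam (1.03 ± 0.79, 0.328), Egfl7 (-0.21 ± 0.89, 0.88) and Emcn (-0.02 ± 0.82, 0.988) did not pass. Ptprb lost its call without KO basal replicate 3 (1.35, adjusted p = 0.053), with no filter (1.51, 0.0517), by voom (1.14, 0.0512), in WT or KO libraries alone (1.47, 0.107 and 1.72, 0.138) and without both KO basal replicate 3 and WT basal replicate 2 (1.28, 0.076). Kdr kept its call without each single library and lost it in KO libraries alone (1.79, adjusted p = 0.309). Cdh5 without KO basal replicate 3 was at 0.52 (adjusted p = 0.531). Cdh5 passed without WT basal replicate 1 or 4 or KO basal replicate 1, 2 or 4 (adjusted p from 0.0181 to 0.048), and Flt1 passed without WT basal replicate 1 or 2 or KO basal replicate 1 (0.0237 to 0.0498). Flt1 also passed without both libraries named above (1.98, 0.0422). With RLE scaling Cdh5 passed (1.74, 0.0426), and DESeq2 called Cdh5 (1.75, 0.021), Flt1 (2.01, 0.0297) and Tek (1.5, 0.0468).

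Between LP and ML cells 0 of 9 members passed, where 18.5% of genes were called by edgeR. Cdh5 (-1.47 ± 0.68, adjusted p = 0.145), Ptprb (-1.14 ± 0.53, 0.149) and Tek (1.57 ± 0.66, 0.105) had an unadjusted p under 0.05, as did 28.7% of genes, with Tek fitted higher in LP and the other 2 lower. Tek passed by limma voom with sample weights (1.37, adjusted p = 0.0451), and DESeq2 called none of these 9 members.

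**Figure D4:**
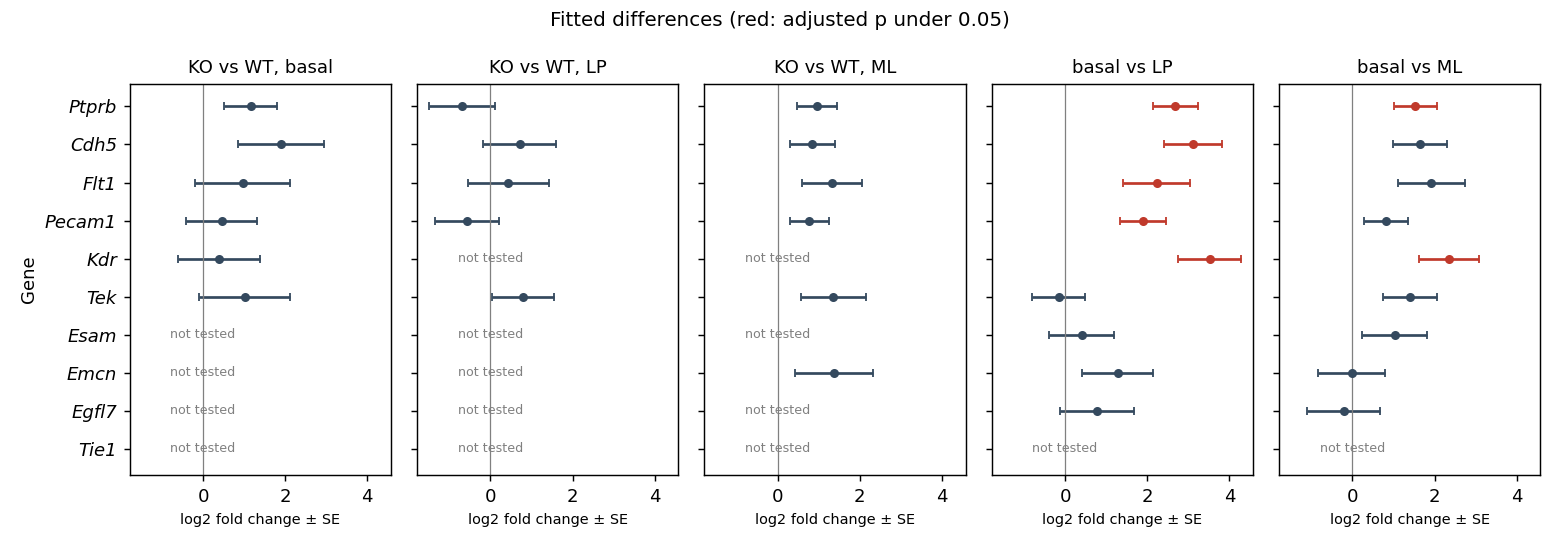
Fitted log2 fold change with its SE for the 10 genes in 5 comparisons (1 panel each), red where the Benjamini-Hochberg adjusted p of edgeR's quasi-likelihood test is under 0.05. The red points are Ptprb, Cdh5, Flt1, Pecam1 and Kdr in basal against LP and Ptprb and Kdr in basal against ML, and no point of the KO comparisons is red.

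Another 30 endothelial genes gave the wider setting. Together they summed to 76.7, 199, 162 and 122 CPM in WT basal replicates 1 to 4 and to 111, 106, 337 and 256 CPM in KO basal replicates 1 to 4, so the highest library was again KO replicate 3, followed by KO replicate 4. Of the 30, 14 were tested in KO against WT basal cells, 0 passed by edgeR's quasi-likelihood test, and 10 were fitted above 0 with a median of 0.74. Per kilobase the most abundant in basal libraries were the TGF-beta co-receptor Eng (11.7 CPM per kb), the cell cycle regulator Rgcc (5.99), Ecscr (4.94), the C-type lectin receptor Cd93 (4.29), the adhesion receptor Adgrf5 (4.09) and von Willebrand factor, Vwf (4.01). In KO basal replicate 3 the adhesion receptors Adgrf5 and Adgrl4 stood at 114 and 48.1 CPM, the highest of the 8, whereas Ecscr stood at 2.60 CPM and Cldn5, the claudin of endothelial tight junctions, at 0. Cldn5 had 7 counts over all 24 libraries, and Sox17, Tal1 and Myct1 did not reach 3 counts in any basal library.

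Of these 30 genes, 19 were tested between populations, and a gene high in basal cells alone can pass that filter. In basal against LP cells 10 were higher and 0 lower, where 14.8% and 13.7% of all genes were, among them Robo4 (4.33 ± 1.06, log2, SE; adjusted p = 0.00245), Cd93 (2.93 ± 0.63, 0.000727), Adgrf5 (2.70 ± 0.68, 0.00309) and Eng (1.79 ± 0.46, 0.00387) by edgeR's quasi-likelihood test, n = 8. These 4 kept their calls without each single library. Clec14a (3.08 ± 1.11, 0.0368) rested on WT basal replicate 2, where it stood at 40.5 CPM, and was at 0.82 without it (adjusted p = 0.612). It also lost its call without any of 7 other single libraries, and Sox7 (3.13 ± 0.95, 0.0135) lost its call without KO basal replicate 4 (2.30, adjusted p = 0.0642). In basal against ML cells, where 19.1% of all genes were higher and 16.7% lower, 6 were higher (Robo4, Clec14a, Cd34, Cd93, Adgrf5 and Rgcc), each of which lost its call without at least 1 library, and Vwf was lower by 2.13 on the log2 scale (-2.13 ± 0.55, adjusted p = 0.00344). Vwf stood at 24.6 to 145 CPM in ML libraries and at 3.02 to 47.2 CPM in basal libraries, where KO replicate 3 was the highest.

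The VEGF ligand Vegfa and the ephrin Efnb2 stood above the endothelial receptors per kilobase. Over the 24 libraries Vegfa, the ligand of Kdr and Flt1, had a mean of 62.9 CPM per kb, the arterial ephrin Efnb2 18.6, the Tek ligand Angpt1 8.33 and the ephrin receptor Ephb4 7.12, while Kdr had 0.789 and Flt1 1.33. Vegfa was higher in basal than in LP cells (1.26 ± 0.26, log2, SE; adjusted p = 0.000387) and than in ML cells (1.51 ± 0.26, 3.16e-05) by edgeR's quasi-likelihood test. Angpt1 was lower in basal than in LP cells (-3.48 ± 0.55, adjusted p = 1.96e-05). Of the 10 genes on the list of VEGF and angiopoietin ligands and co-receptors, 6 were higher and 1 lower in basal against LP (14.8% and 13.7% of all genes), 6 higher and 0 lower in basal against ML (19.1% and 16.7%), and 0 passed in KO against WT basal cells. Vegfa stood at 129 to 492 CPM in WT and 82.0 to 282 CPM in KO basal libraries.

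Markers of other cells were read beside these values in the same libraries. In KO basal replicate 3 the 10 pericyte genes summed to 48.1 CPM, within the 30.3 to 116 CPM of the 8 basal libraries, with Rgs5 at 7.81 and Pdgfrb at 24.1 CPM. Its 10 fibroblast genes summed to 357 CPM, the lowest of the 8 (highest 751). Of these, Fbn1 was at 221 CPM, and Dcn, at 114 CPM, was not the lowest of the 8. Its 6 lymphatic genes summed to 75.1 CPM, also the lowest (highest 295), and 69.6 CPM of it was Reln. Reln stood at 69.6 to 273 CPM in the 8 basal libraries and set the rank of this sum. Lyve1, at 5.53 CPM, lay within its basal range of 0.471 to 14.1 CPM. The 12 immune genes of KO basal replicate 3 summed to 31.2 CPM, the highest of the 8 but for WT basal replicate 2 (143 CPM). Among them Lyz2 was at 26.3, Cd68 at 4.88 and Ptprc at 0. The 9 erythroid and platelet genes of KO basal replicate 3 summed to 0.325 CPM. In KO basal replicate 4 they summed to 21.4 CPM, with the platelet genes Gp9 at 14.4 and Itga2b at 5.65 CPM. The 6 adipocyte genes of KO basal replicate 3 summed to 0.325 CPM. The luminal progenitor genes of KO basal replicate 3 summed to 210 CPM, the lowest of the 8, and its basal epithelial genes to 12683 CPM. The part of any of these cell types in the endothelial levels was not tested.

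KO basal replicate 3 was also the highest of the 8 libraries for Zeb1, Zeb2 and Tcf4, transcription factors that earlier results on these libraries had named. Zeb2, a repressor that binds E-boxes, stood at 6.67, 4.91, 5.73 and 13.8 CPM in WT basal replicates 1 to 4 and at 37.2, 19.0, 225 and 44.5 CPM in KO basal replicates 1 to 4. Zeb1 stood at 1.30 to 8.15 CPM in WT and at 8.38, 16.0, 107 and 3.06 CPM in KO libraries. Id3, a relative of Id4 that is also expressed in endothelium, stood at 11 to 17.8 CPM in WT and at 105, 51.6, 86.8 and 105 CPM in KO libraries, and the E protein gene Tcf4 at 77.4 to 115 CPM in WT and at 188, 231, 237 and 174 CPM in KO libraries. For Zeb2, Id3 and Tcf4 every KO library lay above every WT library, as for 1.07% of all genes, and these genes were taken from earlier results on the same libraries. In the 8-library fit none passed by edgeR's quasi-likelihood test (Zeb2 3.47 ± 0.74, Tcf4 1.15 ± 0.29 and Zeb1 2.95 ± 1.06, log2 with SE, adjusted p = 0.998; Id3 2.65 ± 0.42, adjusted p = 0.165; n = 4 per genotype). DESeq2 called Id3 (2.68, adjusted p = 9.25e-09) and Zeb2 (3.53, adjusted p = 0.00503). By edgeR, Id3 passed in the fit of all 24 libraries (2.63, adjusted p = 0.0122) and with no filter (2.66, 0.00111), and Zeb2 passed with no filter (3.46, 2.21e-05). Id3 also passed by voom (2.62, adjusted p = 0.045). Without KO replicate 3 the edgeR value was 2.12 for Zeb2, 0.98 for Zeb1, 2.63 for Id3 and 1.05 for Tcf4. Id1 stood at 4.35, 0, 1.51 and 4.64 CPM in WT basal replicates 1 to 4 and at 21.4, 2.26, 2.28 and 20.7 CPM in KO basal replicates 1 to 4. The part of endothelial RNA in the levels of these genes was not tested.

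**Figure D5:**
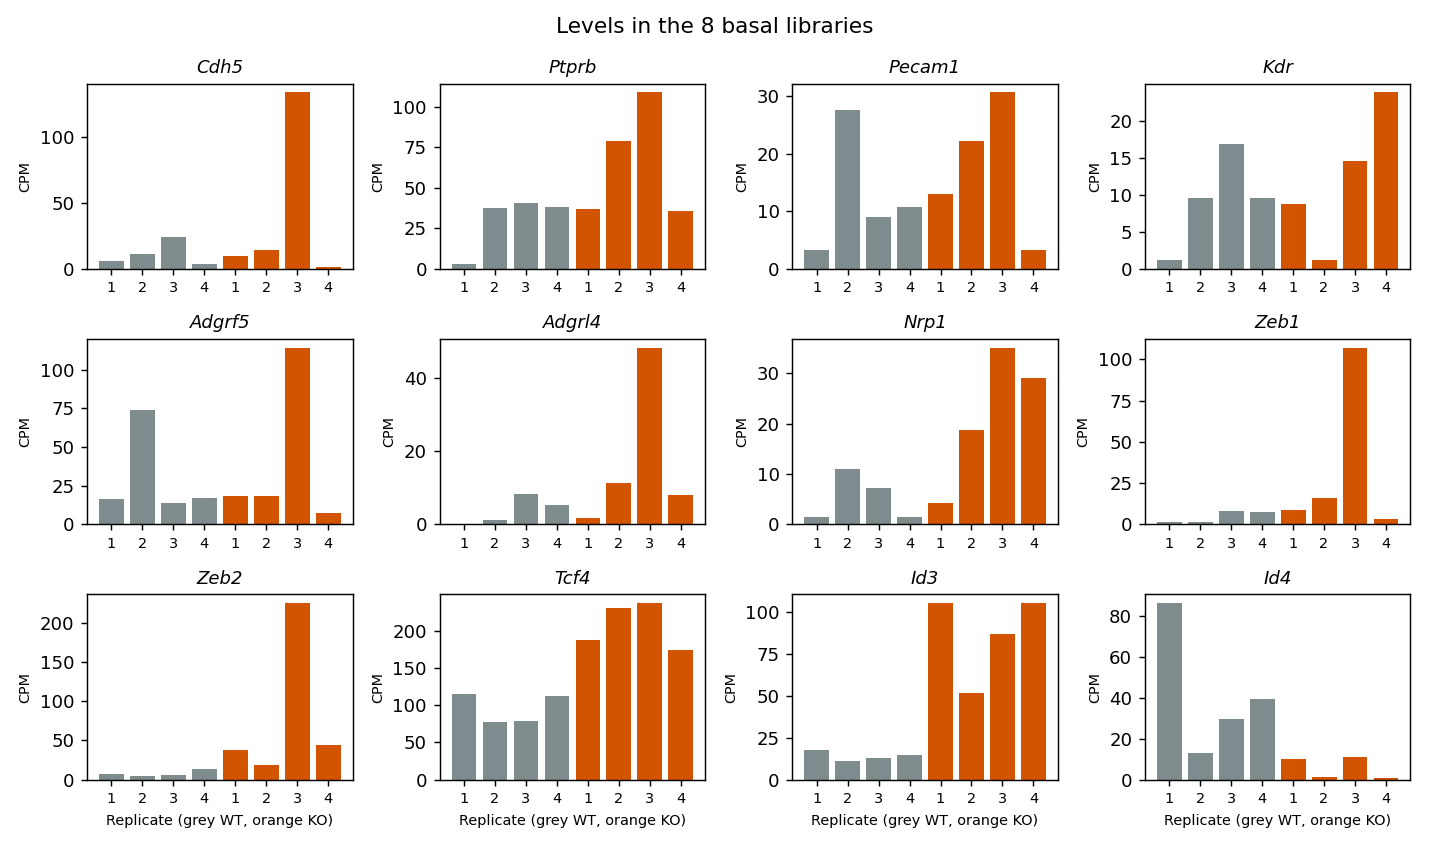
Level in CPM (vertical axes, each from 0) of 12 genes in the 8 basal libraries, WT in grey and KO in orange, replicates 1 to 4 from left to right. Cdh5, Adgrf5, Adgrl4, Zeb1 and Zeb2 peak in KO replicate 3, Kdr peaks in KO replicate 4, and Id3 and Tcf4 are above every WT library in all 4 KO libraries.

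The genes outside the list whose levels were most like the sum of the 10 members over the 24 libraries were ranked. Of 12460 genes compared by Pearson's r of log2(CPM + 0.5), 4 had r over 0.8. These were the junctional adhesion gene Jam2 (0.831), the sphingosine-phosphate receptor gene S1pr1 (0.822), the VEGF co-receptor gene Nrp1 (0.813) and Adgrf5 (0.803). Next came Atp2b4 (0.787), Tmem252 (0.782), Nhlrc2 (0.780) and Cxcl12 (0.772). Over the 8 basal libraries alone r was 0.625 for Jam2, 0.781 for S1pr1, 0.768 for Nrp1 and 0.412 for Adgrf5. It was 0.635 for Atp2b4, 0.443 for Tmem252, 0.813 for Nhlrc2, the highest of the 8 genes, and 0.49 for Cxcl12. Without KO basal replicate 3 and KO LP replicate 3, the libraries farthest from the median, the r of the 8 genes lay between 0.665 and 0.739. These values describe a pattern over libraries that differ in population and depth. Basal epithelial genes also ranked high over the 24 libraries, with r of 0.689 for Krt14, 0.686 for Mylk and 0.680 for Krt5, and over the 8 basal libraries these were at -0.381, 0.016 and 0.115. S1pr1 stood at 37.4 CPM in KO basal replicate 3 and between 1.16 and 14.2 CPM in the other 7 basal libraries, while Nrp1 was at 35.1 CPM there and at 29.2 CPM in KO replicate 4.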

How the data were processed

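RNA sequencing measured 24 libraries of sorted mouse mammary epithelium in 6 groups of 4. The authors deposited expected counts per gene, not normalized, per the file headers. Cutadapt, STAR, RSEM and the build mm10 are listed, per the submitters' processing notes, without version or role. Estimated counts were rounded to whole numbers. Levels are CPM with TMM scaling over all 24 libraries, and no pseudocount enters a fit. Library totals ran from 3098425 to 7246443 counts, so 3 counts are 0.378 to 0.976 CPM. Within groups, no pair of libraries agreed within counting noise (36 pairs, chi-square per degree of freedom at least 20.8).

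Tests used R 4.3.3 and edgeR 4.0.16 (quasi-likelihood F-test, two-sided, TMM, filterByExpr, robust dispersion, Benjamini-Hochberg over all genes tested, threshold 0.05). KO and WT were compared within a population from its 8 libraries, and populations and differences of KO effects in 1 fit of the 24 libraries. Alternatives were DESeq2 1.42.0, limma 3.58.1 (voom with sample weights), RLE scaling, no filter, the replicate number as a block, single genotypes, replicates 1 and 2 or 3 and 4 only, and leaving out libraries. The fits were also run on simulated counts with 1 fixed spread for all genes, which is not the spread of these libraries. There, log2 changes of 2 were recovered for 81.5% of changed genes in KO against WT basal cells. For the difference of KO effects between basal and LP it was 30.6%. These shares do not give the power in the real libraries.

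The 10 members are named in every comparison. From the other endothelial list the 6 most abundant per kilobase in basal cells and up to 4 that passed are named, from the ligand list the 4 most abundant, from other lists the 2 most abundant in basal cells, and Id and ZEB genes from earlier results. Adgrl4, Krt5, Mylk, Lyve1, Cldn5, Sox7, Sox17, Tal1, Myct1, Clec14a, Ptprc and the genes called against ML cells beyond the first 4 were named after their values were seen. Members and lists were chosen with earlier results of these data known. Of 148 listed symbols 146 were in the table. Positions come from GENCODE on mm10 and promoters from RefSeq. Replicate numbers come from the titles and match the column names. The replicate tags of the KO ML samples differ from them (2, 3, 3 and 4 for titles 1 to 4), so KO ML replicates and block fits rest on the titles.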

Additional observations from a re-analysis of the deposited data

Results flagged for a closer look

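In 15 of 102 groups of 4 libraries, 1 library stood apart by Dixon's criterion (the gap to the nearest library, over the range of the group, above the critical value). Chance does this in about 1 group in 20 where the values are independent and normal. That rate does not hold here. A group with all but 1 library at 0 always stands apart, and the summed level was counted beside its own members. The 15 are therefore not read as an excess. Among the endothelial members, the Cdh5 level of KO basal replicate 3 (134 CPM, next 14.3) stood above its group. So did Tek in WT basal replicate 3 (11.8 CPM) and in WT LP replicate 4 (12.3 CPM). Ptprb in WT basal replicate 1 stood below its group, at 3.04 CPM. Tie1 in KO LP replicate 1 (0.377 CPM), Egfl7 in KO LP replicate 4 (1.40 CPM) and Esam in WT LP replicate 3 (2.65 CPM) stood above groups whose levels were near the limit that 3 counts allow. The summed level of the 10 members stood above its group in WT LP replicate 1, at 37.0 CPM.

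Among the other genes followed by library, KO basal replicate 3 stood above its group for Zeb1 (107 CPM) and Zeb2 (225 CPM). Zeb1 in KO ML replicate 3 was at 6.57 CPM and above its group, and Zeb2 in KO ML replicate 1 was at 0 and below it. Id1 in KO LP replicate 1 stood above its group, at 18.6 CPM. Id4 was above 0 in only 1 library of the KO LP group (replicate 4, 0.702 CPM) and of the KO ML group (replicate 3, 0.939 CPM).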

How the results depend on the processing

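No member tested in the main fit of a population passed there in KO against WT under any alternative run. The members that its filter removed were read only in the fit of all 24 libraries and with no filter, where none passed. Over all genes the KO counts did depend on the setting, and the cause was not tested. In basal cells 13 genes passed in the fit of all 24 libraries, 30 without an expression filter, 1 by limma voom with sample weights and 21 by DESeq2, against 0. In LP cells DESeq2 called 4 and replicates 3 and 4 alone called 1, against 0, with 0 to 1 leaving out single libraries. In ML cells 0 passed with RLE scaling, 0 with the replicate block, 0 with replicates 1 and 2 alone and 0 to 0 leaving out single libraries, 4 passed with replicates 3 and 4 alone and 11 by DESeq2, against 1. For the difference of KO effects, basal and LP gave 2 without a filter, 44 by DESeq2, 2 without both KO basal replicate 3 and WT basal replicate 2 (chosen after seeing the data), and 0 to 13 leaving out single libraries, against 0. Basal and ML gave 1 by voom, 42 by DESeq2 and 0 to 3, and LP and ML gave 1 by DESeq2, against 0. Between populations fewer genes passed with fewer samples. WT or KO libraries alone gave 2018 and 1883 for basal and LP (4012 in all), 3140 and 2463 for basal and ML (5044), and 1470 and 721 for LP and ML (2602, and 4801 by voom). The median log2 difference of all genes in basal against LP moved from -0.07 to -0.18 by voom and -0.19 with the block within genotype, and against ML from -0.04 to -0.19 under both.

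In the main fits the replicate numbers were used as names only, and some alternatives used them as a block or to split the libraries. Same-numbered WT and KO basal libraries correlated at 0.045 to 0.121 in their deviations, and in LP 0.093 to 0.296. Every basal library correlated best with its own number (8 of 8, against 6 of 8 in LP and in ML), a hint from the data and not from the design. With the replicate block, the LP and ML difference turned to 0.15 for Flt1, Emcn in basal against ML to 0.18, the difference of KO effects to -0.06 for Tek (basal and LP), 0.24 for Tek and 0.11 for Flt1 (basal and ML), and 0.52 for Cdh5 and 0.31 for Tek (LP and ML). With the block within genotype, added after seeing the data, LP against ML turned to 0.05 for Flt1, and Flt1 in basal against LP was 1.53 (adjusted p = 0.303). Libraries of 1 genotype with the same number correlated at 0.001 to 0.267 (24 pairs, median 0.124, 15 over 0.1), and the labels do not state that they share a pool.

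Other values that changed sign were below the threshold before and after. In basal against LP, Emcn was -0.55 in WT libraries alone. In basal against ML, Emcn was 0.03 with RLE scaling, 0.03 by DESeq2 and 0.10 in KO libraries alone, and Egfl7 was 0.14 without both libraries. In LP against ML, Flt1 was 0.12 and Emcn 0.50 in WT libraries alone. For the difference of KO effects in basal and LP, voom gave -0.65 for Tek and -0.19 for Cdh5, and leaving out both libraries gave -0.63 for Tek, -1.15 for Cdh5 and -0.23 for Flt1. In basal and ML, voom gave -0.21 for Cdh5, and leaving out both libraries gave -1.24 for Cdh5, -0.04 for Ptprb and -0.62 for Emcn. In LP and ML, voom gave 0.18 for Tek and 0.26 for Kdr. In KO against WT, Kdr was -0.22 in basal replicates 1 and 2, Cdh5 -0.43 in basal cells without both libraries, Flt1 -0.51 in LP replicates 1 and 2, Tek -0.11 in LP replicates 3 and 4, and Pecam1 -0.03 in ML replicates 1 and 2.

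Leaving out single libraries turned the sign within these ranges. KO against WT ranged from -0.45 to 2.57 for Cdh5, -0.01 to 1.24 for Pecam1 and -0.16 to 0.83 for Kdr in basal cells, and -0.37 to 1.39 for Flt1 in LP. Esam ranged from -0.01 to 0.71 and Tek from -0.87 to 0.39 in basal against LP, and Emcn from -0.76 to 0.23 in basal against ML. For the difference of KO effects in basal and LP the ranges were -1.14 to 1.79 (Cdh5), -0.96 to 1.56 (Tek), -0.99 to 0.06 (Kdr) and -0.47 to 2.06 (Flt1). In basal and ML they were -1.23 to 1.70 (Cdh5), -0.18 to 0.52 (Ptprb), -0.45 to 1.52 (Emcn), -0.75 to 0.40 (Pecam1), -1.12 to 0.43 (Egfl7), -0.83 to 1.04 (Tek) and -0.88 to 1.21 (Flt1). In LP and ML they were -0.44 to 0.32 (Cdh5), -1.69 to 0.10 (Flt1), -1.01 to 0.60 (Tek) and -0.15 to 1.21 (Esam). Tie1, Emcn, Egfl7 and Esam did not pass the expression filter of the basal KO fit.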

Other observations

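The 6 lymphatic endothelial genes, a separate list, were read in the same libraries. Of 5 tested, 4 were higher and 1 lower in basal than in LP cells and likewise against ML cells, where 28.5% and 35.8% of all genes were called in either direction, by edgeR's quasi-likelihood test with Benjamini-Hochberg adjustment (n = 8 libraries per population). Reln, a secreted glycoprotein, stood at 69.6 to 273 CPM in basal libraries and at no more than 2.82 CPM in LP and ML libraries (8.13 ± 0.57 against LP, log2 with SE, adjusted p = 2.05e-11), and was lowest of the basal libraries in KO replicate 3. The hyaluronan receptor gene Lyve1 stood at 0.471 to 14.1 CPM in basal libraries (2.78 ± 0.97 against LP, adjusted p = 0.032). Prox1, the transcription factor of lymphatic identity, was lower in basal than in LP cells (-2.20 ± 0.55, adjusted p = 0.00282) and stood at 0 in KO basal replicate 3. Its mean was 5.86 CPM in basal, 25.9 CPM in LP and 24.1 CPM in ML libraries. Flt4, Mmrn1 and Ccl21a were highest of all 24 libraries in WT basal replicate 2, the library with the high immune markers. Flt4 had 46 and 33 counts in WT and KO basal replicate 2 and none in 4 of the 8 basal libraries. Ccl21a had 118 and 55 counts in WT and KO basal replicate 2. The calls on this list were not read again with single libraries left out. The part of lymphatic cells in these levels was not tested.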
